A study of Mus with 6 samples.

Results

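The clade A serpins described here are 10 paralogs of mouse chromosome 12, 5 of the Serpina1 group (Serpina1a to Serpina1e) and 5 of the Serpina3 group (Serpina3c, Serpina3g, Serpina3k, Serpina3m and Serpina3n). They were taken by gene symbol from a table of 48882 genes, and all 10 symbols were found. RNA was sequenced from 3 liver samples of wild type mice and 3 of Fabp4 knockout (FABP4-/-) mice. Mice of both groups had been fed a Lieber-DeCarli liquid diet containing ethanol for 8 weeks and had then received 1 ethanol binge, a regimen that produces alcoholic steatohepatitis, and the wild type animals were littermates. Livers without ethanol were not analysed here, so every value below is from an ethanol-fed animal. Strain, sex, age and the way the knockout was made were not given in the sources used here. Fabp4 encodes a fatty acid-binding protein of adipocytes, macrophages and endothelium. The question put to the table is how liver expression compares with and without Fabp4.

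Serpins are protease inhibitors that act once. The protease cuts an exposed loop, the reactive centre loop, the loop then inserts into a beta sheet of the serpin, and the protease is left trapped in a distorted state. Clade A holds the plasma serpins secreted mainly by hepatocytes. Alpha-1-antitrypsin, the best known, restrains neutrophil elastase, and alpha-1-antichymotrypsin restrains chymotrypsin-like proteases such as cathepsin G. Humans have a single gene for each of these proteins, SERPINA1 and SERPINA3, where the mouse has clusters of copies that differ most in the reactive centre loop. SERPINA3-type genes are classical acute-phase genes, which hepatocytes switch on under IL-6, while mouse Serpina1 genes respond little to inflammation. Copies this close in sequence share reads, and how the authors' counting divided such reads was not given in the sources used here. The value of a single copy, in particular among Serpina1a to Serpina1e, is therefore less certain than the sum of its group.

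The values are TPM (a measure of a gene's share of all transcripts, corrected for gene length), recovered from log2 values whose distribution is nearly the same in every library, as quantile normalization leaves it. TPM carries no depth, so no counting interval is given. Values are listed in the order of replicates 1, 2 and 3. Fabp4 was at 14.7, 8.15 and 19.96 TPM (wild type) and had no value in any knockout library, as the labels require. The 12 hepatocyte markers had values in every library, and 5 of them were higher, 6 lower and 1, Alb, equal (median log2 difference -0.01, and 0.05 and 0.08 without wild type replicate 1 and knockout replicate 1). Alb had the same value in every library, which the shared distribution fixes for the most abundant gene, so it carries no information. The other 11 markers summed to 65389 to 71108 TPM in wild type and to 57935 to 65297 TPM in the knockout libraries, narrowly without overlap. This sum weighs the most abundant genes, and 5 of the 11 were higher in the knockout. Fgb, which was lower, was at 7155, 12283 and 3959 TPM (wild type) against 4335, 4245 and 3941 TPM (knockout). The lower sum is therefore not a decrease of the hepatocyte markers in general. Of the other marker lists, all 4 tested neutrophil markers were lower in the knockout. All 10 macrophage, 9 endothelial, 8 stellate cell, 4 B cell and 5 cholangiocyte markers tested were higher. Of 3 T and NK cell markers tested, 2 were higher and 1 was lower. Over all 14155 genes tested, 8125 were higher and 6029 lower. None of these markers passed the test described below. The 6 exocrine pancreas markers summed to at most 1.02 TPM. The part of these cell types in the values of the members was not tested. Wild type replicate 2 and knockout replicate 1 stood apart on the first and the second principal component. In bulk tissue, fewer cells of a type and less RNA per cell cannot be told apart.

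The 10 genes differed widely in level. Serpina1b stood first with a mean of 5802 ± 562 TPM (SD over the 6 libraries), followed by Serpina1c at 2361 ± 252, Serpina1d at 2200.3 ± 277, Serpina3k at 1738 ± 1313, Serpina1a at 1606 ± 137, Serpina3m at 962 ± 258 and Serpina3n at 646 ± 409.5 TPM. These 7 ranked between 18 and 369 among all genes of a library. Serpina3g at 12.3 ± 3.61 TPM and Serpina1e at 11.9 ± 2.73 TPM lay far below, and Serpina3c was hardly detected. Only 3 steps in this order separated neighbours without overlap of their ranges over the 6 libraries: Serpina1b from Serpina1c, Serpina3n from Serpina3g, and Serpina1e from Serpina3c. Serpina3k was above Serpina1a in all 3 wild type libraries and below it in all 3 knockout libraries, so its place in the order differed by genotype. Serpina3g was above Serpina1e in 4 of the 6 libraries. Serpina1a was above Serpina3m, and Serpina1b above Serpina1c, in all 6.

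**Figure D1:**
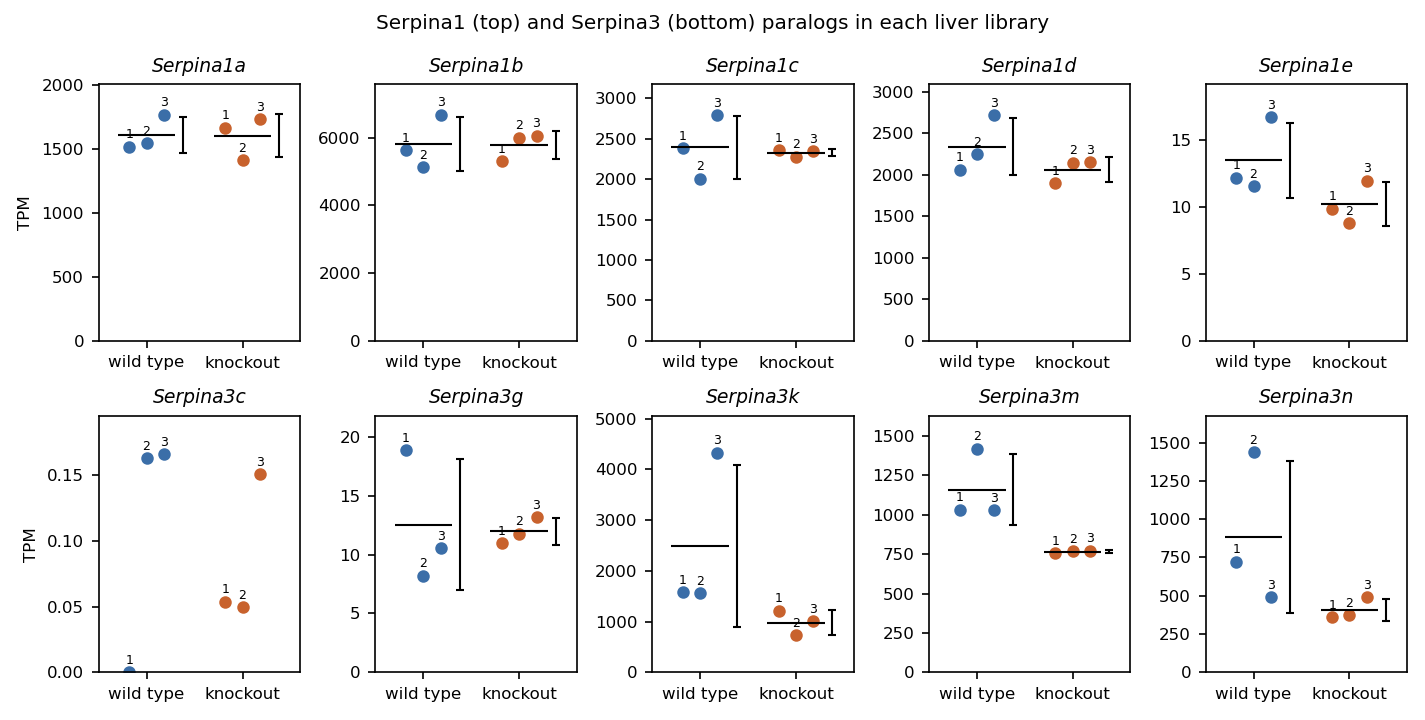
TPM of each of the 10 genes in the 3 wild type (blue) and 3 Fabp4 knockout (orange) libraries, each panel with its own linear axis from 0. Numbers are replicate numbers, horizontal lines group means and vertical bars ± 1 SD, not drawn for Serpina3c, where wild type replicate 1 had no value and is shown at 0. The 3 knockout libraries lie together at 757 to 771 TPM for Serpina3m, below all wild type libraries, while the groups overlap for every Serpina1 gene.

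The mean TPM of each of the 10 members was lower in the knockout, by little for most. The differences of Serpina3k, Serpina3m and Serpina3n were the largest on the log2 scale, with means of 983, 766 and 409 TPM against 2493, 1159 and 884 TPM, while the log2 differences of the 4 abundant Serpina1 genes lay between -0.17 and 0.00. No member passed the test across all genes (limma on log2(TPM + 1), Benjamini-Hochberg adjusted p under 0.05), where 1 of the 14155 genes tested, Fabp4, passed, a share of 0.00706%. Of the 10 members, 9 reached the mean of 0.5 TPM needed for the test, and Serpina3c did not. At an unadjusted p under 0.05, which is not a call, 3 of the 9 were lower and 0 higher, against 2.91% of all tested genes lower and 5.12% higher. That background split depended on scaling, with 557 genes lower and 531 higher after median scaling and 537 lower and 570 higher after quantile normalization, against 412 and 725 in the reported fit. All 3 knockout libraries lay below all 3 wild type libraries for 2 of the 9, Serpina3k and Serpina3m, against 4.38% of all genes tested, and above them for none, against 8.94%. The smallest p that an exact two-sided permutation test of 3 against 3 libraries can give is 0.1.

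Among the inducible Serpina3 genes, Serpina3n encodes a secreted inhibitor that blocks granzyme B and is the closest in use to human alpha-1-antichymotrypsin. It was at 723, 1439 and 490.1 TPM (wild type) against 362, 372 and 492 TPM (knockout). The groups overlapped through 1 pair of nearly equal libraries, wild type replicate 3 and knockout replicate 3, and wild type replicate 2 stood well above every other library. The log2 difference was -0.98 (SE 0.36), with an adjusted p of 0.574 from limma, and the exact permutation test gave p = 0.2. Without wild type replicate 2 the difference was -0.56, and without both libraries that stood apart it was -0.48 (this setting was chosen after seeing the data). Wild type replicate 2 also had the highest summed neutrophil markers (49.9 TPM, against 40.8 and 20.8 in the other wild type and 15.8 to 20.4 in the knockout libraries). Whether neutrophil content had a part in the Serpina3n values was not tested. Of the 9 neutrophil markers 4 reached the filter, and the 3 with the smallest p, S100a9, Retnlg and S100a8, differed by -0.73 to -1.02 (log2). The fourth, Csf3r, was highest in wild type replicate 1. The 5 under the filter did not move together: Ly6g and Mpo had a value in wild type replicate 2 alone, Ngp in knockout replicates 1 and 2 alone and Camp in none, and Cxcr2 averaged 0.323 TPM in wild type and 0.356 TPM in the knockout.

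Serpina3m, a plasma inhibitor whose gene lies next to Serpina3n, was at 1031, 1418 and 1027 TPM (wild type). In the knockout it was at 757, 770.0 and 771 TPM. The 3 knockout libraries agreed closely and lay wholly below the wild type libraries, with wild type replicate 2 highest as for Serpina3n. The group means differed 1.51-fold, a log2 difference of -0.58 (SE 0.16), with the smallest p of the members (limma, unadjusted 0.00641, adjusted 0.522; exact permutation p = 0.1). The difference lay between -0.66 and -0.42 in all 16 alternative settings.

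Serpina3k, called contrapsin, is a constitutively expressed plasma inhibitor of trypsin-like and kallikrein-type proteases. Its wild type values were 1580.5, 1565 and 4333 TPM in replicates 1, 2 and 3. Its knockout values were 1216, 729.8 and 1004 TPM. The groups did not overlap, but wild type replicate 3 stood 2.77-fold above the lowest wild type library and set most of the group's SD of 1594 TPM. The mean was 2.54-fold higher in wild type, a log2 difference of -1.20 (SE 0.40, limma adjusted p 0.559, exact permutation p = 0.1). Without wild type replicate 3 the difference was -0.71, and the groups still did not overlap.

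Serpina3g encodes Spi2A, an inhibitor found inside cells, best known in lymphocytes and macrophages, where it acts on cysteine cathepsins. It was at 18.8, 8.22 and 10.5 TPM (wild type) against 10.9, 11.8 and 13.2 TPM (knockout). Wild type replicates 1 and 2 were the highest and the lowest of the 6, and the knockout values lay between them. The log2 difference was 0.01 (SE 0.27, 95% interval -0.61 to 0.63, limma adjusted p 0.996), an interval that spans changes of either direction. The summed T and NK cell markers had the same extremes, 8.45 TPM in wild type replicate 1 and 3.14 TPM in wild type replicate 2, against 4.45 to 6.02 TPM in the other libraries. Of the 8 markers 3 passed the filter, and their part in the Serpina3g values was not tested. The summed macrophage markers were also lowest in wild type replicate 2 (137 TPM) but highest in knockout replicate 3 (637 TPM).

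Serpina3c, a paralog known from adipose tissue, had no value in wild type replicate 1 and 0.163 and 0.165 TPM in the other wild type libraries. In the knockout it was at 0.0537, 0.0496 and 0.151 TPM. It was under the filter, and in the fit without a filter its log2 difference was -0.03 (SE 0.07, limma adjusted p 0.926).

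The Serpina1 group, the alpha-1-antitrypsin genes, overlapped between genotypes at every copy. Serpina1b, the most abundant copy, was at 5634, 5133 and 6675 TPM (wild type) against 5313, 5996 and 6059.6 TPM (knockout), with all knockout values inside the wild type range. Its log2 difference was 0.00 (SE 0.15, 95% interval -0.35 to 0.35, limma adjusted p 1.0). Serpina1a was at 1516, 1544 and 1767 TPM (wild type) against 1665, 1412 and 1730.2 TPM (knockout), a log2 difference of -0.01 (95% interval -0.33 to 0.31). For both genes the interval covers differences in either direction.

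Serpina1c was at 2380.1, 2008 and 2792 TPM (wild type) against 2363, 2278 and 2344 TPM (knockout) (log2 -0.03, 95% interval -0.38 to 0.33). Its knockout SD of 44.8 TPM was far smaller than the wild type SD of 392 TPM. Serpina1d was at 2059.8, 2243 and 2713.5 TPM (wild type) against 1894.5, 2144 and 2147 TPM (knockout) (log2 -0.17, 95% interval -0.52 to 0.17). Wild type replicate 3 was the highest of the 6 libraries for each of the 5 Serpina1 copies. The minor copy Serpina1e was at 12.2, 11.6 and 16.7 TPM (wild type) against 9.88, 8.79 and 12 TPM (knockout). Its groups overlapped through knockout replicate 3, and its difference, -0.36 (SE 0.18), was the largest of the group but did not pass (limma adjusted p 0.683, exact permutation p = 0.2).

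Sums over a group depend less on how reads were divided among its copies. The 5 Serpina1 copies summed to 11602, 10940.0 and 13964 TPM (wild type) against 11245, 11839 and 12293 TPM (knockout), 1.10 to 1.42% of all TPM in each library. The 5 Serpina3 copies summed to 3353, 4430.3 and 5861 TPM (wild type) against 2346, 1883.5 and 2281 TPM (knockout). The Serpina1 sums overlapped fully, and the Serpina3 sums did not overlap, with a wild type mean of 4548 ± 1258 TPM (SD, n = 3) and a knockout mean of 2170.3 ± 250.5 TPM (SD, n = 3). No p is given for these sums, since the members were chosen with results of these data known.

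**Figure D2:**
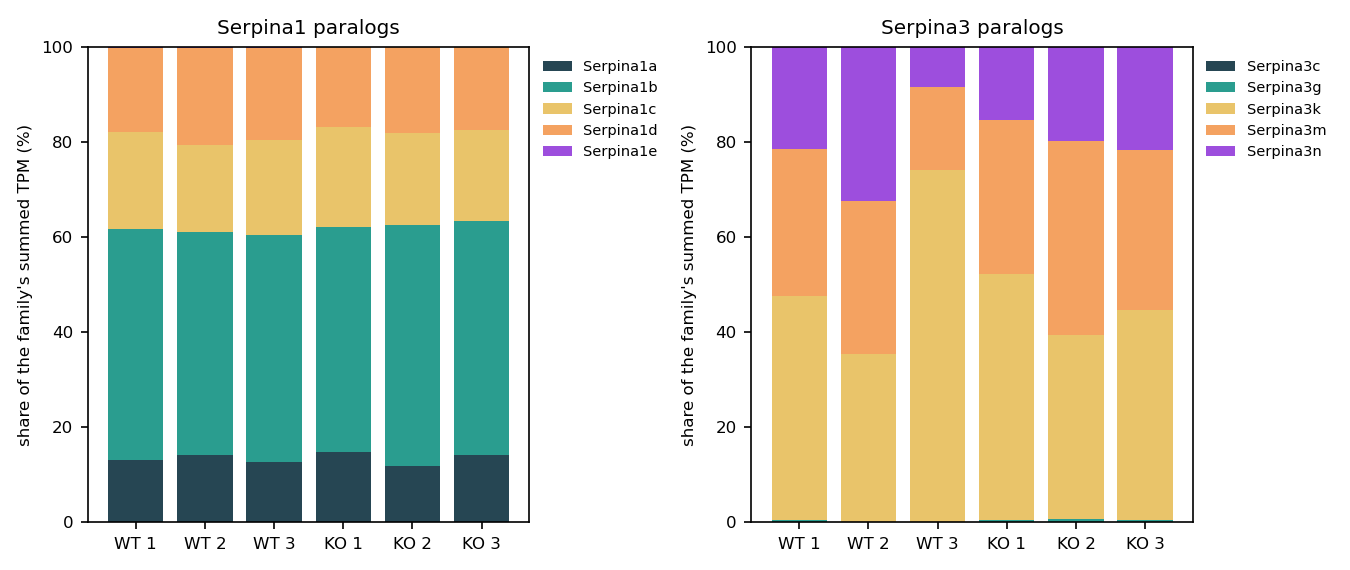
Share of each copy in the summed TPM of its group (%), in each of the 3 wild type (WT) and 3 knockout (KO) libraries. The Serpina1 shares hardly move between libraries, with Serpina1b at 46.9 to 50.7%, while Serpina3k takes from 35.3% (WT 2) to 73.9% (WT 3) of the Serpina3 sum.

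The make-up of the 2 groups differed in steadiness. Serpina1b made 46.9 to 50.7% of the Serpina1 sum, Serpina1c 18.4 to 21.0%, Serpina1d 16.9 to 20.5% and Serpina1a 11.9 to 14.8%, and Serpina1e never more than 0.120%. In the Serpina3 group the leading copy changed with the library. Serpina3k made 47.1, 35.3 and 73.9% in wild type replicates 1, 2 and 3 and 51.8, 38.8 and 44.0% in the knockout, and Serpina3m took the lead in knockout replicate 2 with 40.9%. Serpina3n made 32.5% in wild type replicate 2 and 8.36% in wild type replicate 3.

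Serpina3m and Serpina3n varied together over the 6 libraries (Pearson r 0.93, Spearman rho 0.94). With 6 points, and with the libraries of both groups pooled, this is a description and carries no p, and r was 0.70 over the 4 libraries left when the 2 farthest from the median of Serpina3m were left out. For Serpina3k and Serpina3n r was 0.22 and rho 0.37. Over 4 libraries r was 0.71, without wild type replicate 3 and knockout replicate 2, the farthest from the Serpina3k median. The lower coefficient of this pair therefore rests on the libraries left out. The ratio of Serpina3k to Serpina3n was 8.84 in wild type replicate 3 and 1.09 in wild type replicate 2, with 1.96 to 3.36 in the other 4 libraries.

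**Figure D3:**
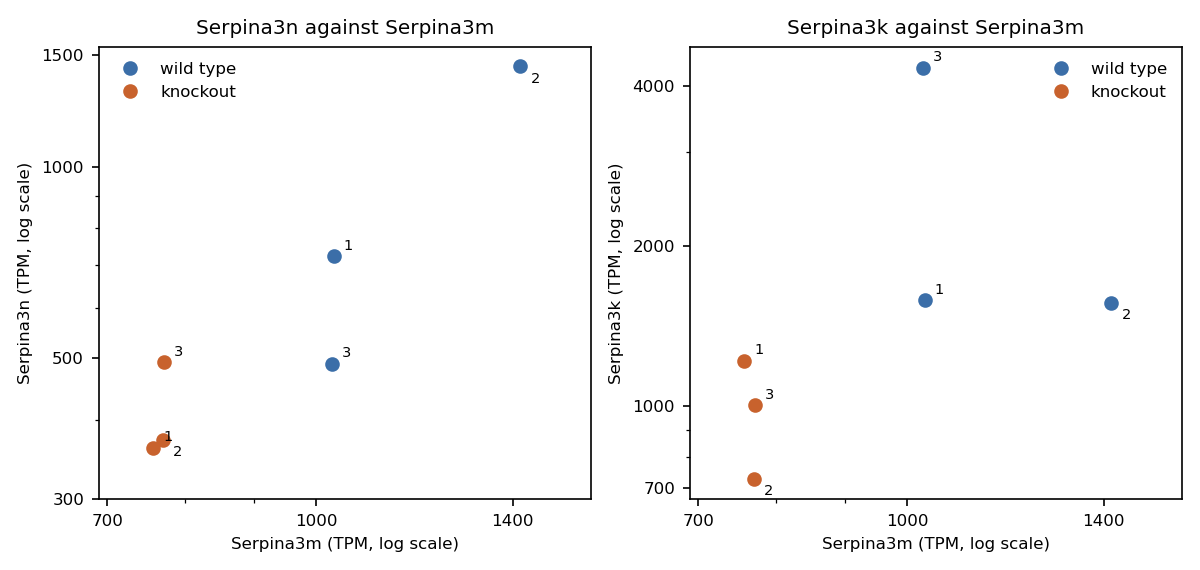
Serpina3n (left) and Serpina3k (right) against Serpina3m, in TPM on log axes, 1 point per library with its replicate number (wild type blue, knockout orange). Wild type replicate 2 is high in Serpina3m and Serpina3n, and wild type replicate 3 is high in Serpina3k (4333 TPM) with Serpina3n at 490.1 TPM.

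The 10 members lie in 1 cluster of clade A genes on chromosome 12 (mm10, 103616675 to 104414334), 797.7 kb long, in which the table lists 26 clade A genes including pseudogenes. The protein-coding genes of this stretch in the RefSeq table of the same build are all serpins, and the flanking ones are Ppp4r4 and Gsc. The 5 Serpina1 genes lie together on the minus strand, from Serpina1b (103728156 to 103738189) to Serpina1e (103946931 to 103956897). The Serpina3 members begin 190.0 kb further on with Serpina3c (104146907 to 104153931, minus strand), followed on the plus strand by Serpina3g (104236242 to 104241934), Serpina3k (104338486 to 104345739), Serpina3m (104387157 to 104394259) and Serpina3n (104406698 to 104414334). Serpina3k, Serpina3m and Serpina3n are the last 3 genes of the cluster in map order. They are also the only abundant Serpina3 copies: the 6 Serpina3 genes and pseudogenes nearest before them, from Serpina3e-ps to Serpina3j, had means of at most 12.3 TPM.

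**Figure D4:**
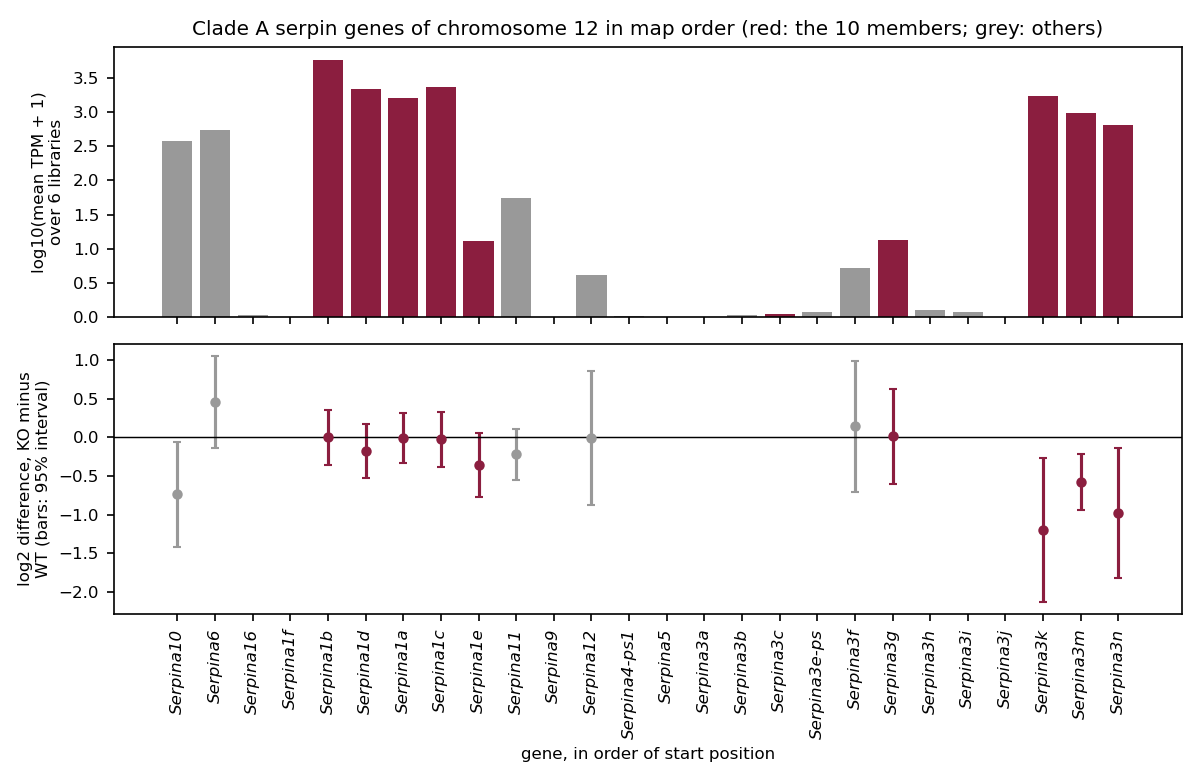
The 26 clade A genes of the chromosome 12 cluster in order of start position, members in red and others in grey. The upper panel gives the mean over 6 libraries as log10(TPM + 1), and the lower panel the log2 difference with its 95% interval for genes that reached the filter. Serpina3k, Serpina3m and Serpina3n, at the right end, have differences of -1.20, -0.58 and -0.98.

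Of the 16 other clade A serpins on the list, 6 reached the filter, 4 lower and 2 higher in the knockout, with a median log2 difference of -0.12 against 0.04 over all genes tested, and 0 passed (limma, adjusted; 1 at an unadjusted p under 0.05). Without wild type replicate 2 that median was 0.07. Serpina10, the protein Z-dependent inhibitor of coagulation factor Xa, at the other end of the cluster, was at 384, 732 and 324 TPM (wild type) against 312, 239 and 261.5 TPM (knockout). Its groups did not overlap, and wild type replicate 2 was again the highest (log2 -0.74, SE 0.29, limma adjusted p 0.584). Its neighbour Serpina6, corticosteroid-binding globulin, leaned the other way, at 372, 429 and 589 TPM (wild type) against 452, 642 and 835 TPM (knockout), with overlap (log2 0.45, SE 0.26). Serpina11, whose function is little known, differed by -0.22 (SE 0.14).

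Of 12 serpins of other clades tested, 8 were higher and 4 lower, 0 passed (limma, 2 higher and 1 lower at an unadjusted p under 0.05), and the median log2 difference was 0.13, and -0.0017 without wild type replicate 2. Serpine2 (0.49, SE 0.20), a thrombin inhibitor of the cell surface, and Serpinh1 (0.56, SE 0.23), the collagen chaperone HSP47, were higher in every knockout library. For these serpins limma gave adjusted p of 0.588 and 0.599.

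Proteases that serpins face were split, 9 higher and 7 lower of 16 tested, with 0 passing (limma, 1 lower at an unadjusted p under 0.05) and a median of 0.02, which was -0.03 after median scaling. Elane and Ctsg, the neutrophil elastase and cathepsin G genes that Serpina1 and Serpina3 products inhibit, were under the filter: Elane was at no more than 0.320 TPM and Ctsg had no value in any library. Prtn3, proteinase 3, was at 1.01, 2.11 and 0.615 TPM (wild type) against 0.967, 0.450 and 0.0948 TPM (knockout). Ctsl, a lysosomal cysteine cathepsin, was at 718, 1457 and 674 TPM against 680.0, 356 and 543 TPM (log2 -0.81, SE 0.34), with wild type replicate 2 highest, and the contact factor gene F11 differed by -0.45 (SE 0.22). Of the 6 clearance receptors, which take up serpin-protease complexes or glycoproteins, 3 were higher and 3 lower, with 0 passing (limma, and 0 at an unadjusted p under 0.05) and a median of -0.09, which was 0.0011 without wild type replicate 3. Asgr1 differed by -0.31 (SE 0.15), Lrp1 by -0.50 (SE 0.33) and Vldlr by -0.18 (SE 0.16).

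The signals that drive SERPINA3-type genes were examined next. Of 17 genes tested on the list of IL-6 and acute-phase signalling, 10 were lower and 7 higher, with a median of -0.14, and 0 passed (3 lower at an unadjusted p under 0.05). Without knockout replicate 1 that median was 0.01. Stat3, the transcription factor under IL-6, was at 63.1, 87.4 and 47.0 TPM (wild type) against 42.1, 36.8 and 29.5 TPM (knockout), without overlap (log2 -0.82, SE 0.24). Cebpd, a partner of Stat3 at acute-phase promoters, was at 8.14, 8.81 and 7.43 TPM against 6.25, 3.75 and 3.04 TPM, also without overlap (-0.81, SE 0.22). Pim3, a kinase gene, was at 85.5, 121 and 39.3 TPM against 28.4, 20.1 and 45.4 TPM (-1.29, SE 0.43), with overlap. For these 3 genes limma gave adjusted p from 0.522 to 0.555. In all 3 genes wild type replicate 2 was the highest library, as for Serpina3m and Serpina3n. Il6 itself was under the filter and leaned the other way. It was at 0.428 TPM, no value and 0.0858 TPM (wild type) against 0.726, 0.4605 and 0.306 TPM (knockout). The part of these genes in the Serpina3 values was not tested.

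Hepatocyte transcription factors, which act at the promoters of liver-specific genes, were lower for 7 and higher for 4 of 11, with a median of -0.05 and 0 passing (limma, 1 lower at an unadjusted p under 0.05). Without wild type replicate 3 that median was 0.0013. Onecut1 was at 12.9, 22.6 and 14.3 TPM (wild type) against 7.27, 5.92 and 6.89 TPM (knockout) (log2 -1.16, SE 0.21, limma adjusted p 0.499), and Onecut2 (-0.30, SE 0.19) overlapped between groups. Growth hormone signalling, known to act on Serpina3-type genes through STAT5, gave 5 higher and 4 lower of 9, with a median of 0.15 and 0 passing (1 higher at an unadjusted p under 0.05). Cux2, a female-biased gene, differed by 0.81 (SE 0.28), Igfals by 0.48 (SE 0.29) and Igf1 by -0.20 (SE 0.13). The median of that list was -0.06 without wild type replicate 2 and 0.32 without wild type replicate 3. Interferon is known to induce Serpina3g in macrophages. Interferon-stimulated genes were higher for 15 of 20, against 8125 of 14155 over all genes tested. Their median was 0.15, with 0 passing (4 higher at an unadjusted p under 0.05). Ifi27 (0.63, SE 0.10), Bst2 (0.52, SE 0.13) and Irf7 (0.73, SE 0.24) were higher in every knockout library, where Serpina3g was not.

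Alpha-1-antitrypsin is folded in the endoplasmic reticulum. The genes of folding and export were higher for 14 of 18, against 8125 of 14155 over all genes tested. Their median was 0.18, with 0 passing (limma, 3 higher at an unadjusted p under 0.05). Pdia3, a disulfide isomerase, was at 273, 285 and 220.2 TPM (wild type) against 482, 307 and 525 TPM (knockout), without overlap (log2 0.72, SE 0.22, limma adjusted p 0.537). Hsp90b1 (0.73, SE 0.26) and Pdia4 (0.73, SE 0.29) overlapped between groups. The list summed to 6700.0 and 6633 TPM in knockout replicates 1 and 3 and to 3634 TPM in knockout replicate 2, against 3195 to 4532 TPM in wild type, whereas the Serpina1 sums of these knockout libraries lay between 11245 and 12293 TPM.

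**Figure D5:**
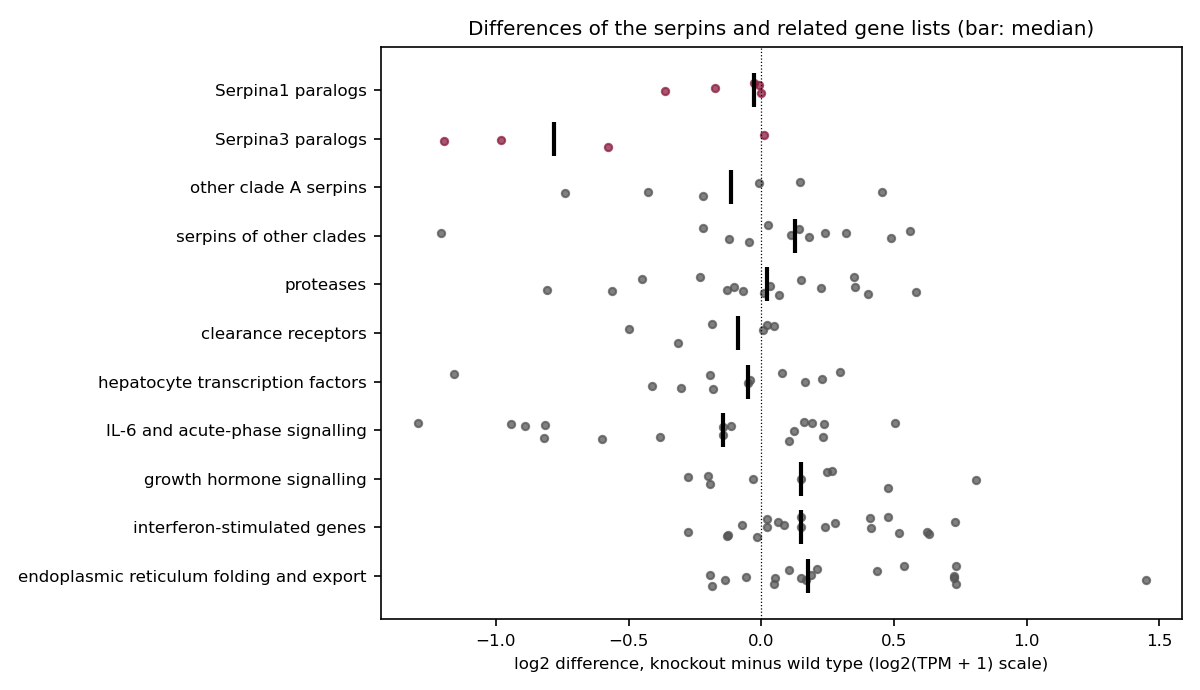
Log2 difference, knockout minus wild type on the log2(TPM + 1) scale, of each tested gene of the Serpina1 and Serpina3 groups (red) and of 9 related lists (grey), with the median of each as a bar. The Serpina3 median lies at -0.78, from 4 tested genes, and the medians of the Serpina1 group and of the 9 lists lie between -0.14 and 0.18.

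The genes whose values over the 6 libraries were most like a member's were sought among 5592 named genes with a mean of at least 10 TPM, by Pearson r on log2(TPM + 1). These are descriptions over 6 libraries, the highest of many coefficients. For Serpina3n they were Steap4, a metalloreductase (r 0.991), the growth factor receptor Egfr (r 0.991) and Igf1 (r 0.988), and each stayed at 0.943 or above without wild type replicates 1 and 2, the libraries farthest from the Serpina3n median. Steap4 was at 147, 258 and 86.2 TPM (wild type) against 63.3, 64.05 and 78.8 TPM (knockout), with wild type replicate 2 highest. For Serpina3k they were Echdc1 (r 0.951, rho 0.71), the mitochondrial gene CYTB (r 0.949, rho 1.0) and Ndufa13 (r 0.948, rho 0.83), and the coefficient of Echdc1 was 0.135 without the 2 farthest libraries. For Serpina3g they were Sh3glb1 (r 0.989), Zc3hav1 (r 0.978) and Fcgr4 (r 0.976), an Fc receptor of myeloid cells that was at 26.9 TPM in wild type replicate 1 and 6.23 TPM in wild type replicate 2. For Serpina1a they were Cd164 (r 0.975), Got1 (r 0.960) and Sdhb (r 0.944), and for Serpina1e Pxmp2 (r 0.981), Map2k3 (r 0.972) and Gnmt (r 0.962).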

How the data were processed

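The authors deposited 1 matrix of genes by libraries whose value columns carry the name TPM, per the file headers. The values the authors deposited are log2 values (some are below 0, and their antilogarithms sum to 983800 to 1018118) and look quantile normalized, both read from the values. FastQC, Trimmomatic and mm10 are named per the submitters' processing notes. Aligner, counting tool and strand setting were not given in the sources used here. Gene length in bases is given per the file headers.

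Values were back-transformed, a blank was taken as 0, and genes with a mean of at least 0.5 TPM (14155) were tested on log2(TPM + 1) with limma 3.58.1 in R 4.3.3 (trend, two-sided, only group in the model, Benjamini-Hochberg, threshold 0.05; 4 residual and 3.65 prior degrees of freedom). A pseudocount of 1 understates the change of low genes. The test was tested on simulated data. Exact permutation tests used all 20 arrangements. TPM keeps no depth, so precision rests on 3 libraries per group, and p-values reflect only the spread among these samples, which the labels do not state to be separate mice.

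The members and the 20 gene lists (218 genes, all matched, 1 by an older symbol) were chosen with earlier results of these data known. Named genes were the members, Fabp4, up to 3 genes per list with the smallest p, described only where they bear on the members, and the 3 most similar genes of 5 members. Some genes that the rule names are left out. Genes named outside this rule, such as Alb, Elane, Ctsg, Il6 and the neutrophil markers, were chosen after their values were seen. Alternatives were other pseudocounts, filters and scalings, the deposited log2 values, no trend, a replicate block and leaving out libraries.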

Additional observations from a re-analysis of the deposited data

How the results depend on the processing

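The number of members past the threshold was 0 in the reported fit and in all 16 alternatives. The number of all genes past it, 1 as reported, was 0 with a pseudocount of 5, without a filter, on the log2 values as deposited (where Fabp4 has no value in the knockout) and with the replicate block, 0 to 6 when 1 library was left out, and 3 without both libraries that stood apart. The Fabp4 difference itself no longer passed in 6 alternatives, with a pseudocount of 5, without a filter, with the replicate block and without wild type replicate 1, knockout replicate 1 or knockout replicate 2. The replicate numbers do not pair the samples: deviations of same-numbered libraries correlated at -0.261, -0.265 and -0.049. Under the replicate block the log2 differences of the members were unchanged by construction and the limma adjusted p of Serpina3m was 0.822. The differences of Serpina3k (-1.61 to -0.71), Serpina3m (-0.66 to -0.42), Serpina3n (-1.33 to -0.48), Serpina1d (-0.26 to -0.06) and Serpina1e (-0.47 to -0.21) kept their sign in every alternative. The number of members lower at an unadjusted p under 0.05, 3 as reported, was 1 (Serpina3m) without knockout replicate 2. It was 2 without knockout replicate 1, 2 without both libraries that stood apart and 4 without knockout replicate 3. The members near 0 changed sign. Serpina1b was at -0.0519 after median scaling, -0.0209 after quantile normalization and -0.0248 without both libraries that stood apart, and between -0.0855 and 0.1039 without 1 library. Serpina3g was at -0.0039 with a pseudocount of 5, -0.0358 after median scaling, -0.0199 after quantile normalization and -0.1696 without both libraries that stood apart, and between -0.2266 and 0.3258 without 1 library. Without 1 library Serpina1a lay between -0.0662 and 0.0803 and Serpina1c between -0.1469 and 0.0909. The median of growth hormone signalling, 0.15 as reported, lay between -0.06 and 0.32 without 1 library, and of the 9 related lists only interferon-stimulated genes and folding and export kept the sign of their median in every alternative, as did the Serpina3 members. The causes were not tested. The depth behind any TPM value is unknown.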

Other observations

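Serpina1e, the minor alpha-1-antitrypsin copy, followed Serpina3k more closely than any Serpina1 copy over the 6 libraries (Pearson r 0.92, Spearman rho 0.83, against r 0.54 to 0.79 with the other Serpina1 genes). The coefficient was 0.21 over the 4 libraries left without wild type replicate 3 and knockout replicate 2, the highest and the lowest for both genes, so that it rests on those libraries. Wild type replicate 3, where Serpina3k was at 4333 TPM, was the library with the lowest wild type value of Serpina3n and the highest of every Serpina1 copy.

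Serpina7, the thyroxine-binding globulin gene and the only clade A gene of the table outside chromosome 12, varied most among the abundant clade A genes within a group, from 126 TPM in wild type replicate 3 to 851 TPM in wild type replicate 2. In the knockout it was at 370.2, 189.5 and 244 TPM, inside the wild type range (log2 -0.43, SE 0.62). Serpina3f, next to Serpina3g in the cluster, had its highest value in the same library as Serpina3g, at 7.18 TPM in wild type replicate 1, and its lowest in wild type replicate 2, at 2.46 TPM.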
